A study of Mus musculus with 18 samples.

Results

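The genes described here are Sele, Selp, Selplg, Icam1, Icam2, Vcam1, Pecam1 and Cdh5, which encode selectins, a selectin ligand and adhesion molecules of endothelial cells. They were chosen by symbol, as 8 of the 24419 gene symbols in the expression table. All 8 passed the filter on low values, an FPKM (fragments per kilobase of transcript, scaled to the mapped fragments of the library) of at least 1 in at least 1 mouse, as did 13333 genes in all. Selp and Selplg stayed below 1 FPKM in every mouse of the sham, 10 min and 1 h groups, so both passed the filter only through the later groups.

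RNA-seq was performed on left ventricle tissue of 18 male C57BL/6 mice aged 8 weeks, with 3 mice in each of 6 groups. The sham group served as control, and the AMI (acute myocardial infarction) samples were infarcted tissue taken 10 min, 1 h, 6 h, 24 h or 72 h after the proximal left anterior descending coronary artery had been tied. All mice were of the same strain, and the labels name no transgene or deletion. Pentobarbital was used for anaesthesia. No release of the ligature is described in the sources used here, and no sorting of cells is described.

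Leukocytes leave the blood in steps. Selectins catch passing cells and let them roll on the vessel wall, immunoglobulin-type adhesion molecules such as ICAM-1 and VCAM-1 hold them firmly through integrins, and molecules of the endothelial junctions, such as PECAM-1 and VE-cadherin, line the path through the wall. P-selectin is also kept ready in storage granules of endothelial cells (Weibel-Palade bodies) and of platelets, whereas E-selectin has to be made anew after cytokines such as tumour necrosis factor or interleukin-1 reach the endothelium. In the infarcted heart this system admits neutrophils first and monocytes later.

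On mm10 with GENCODE M21 annotation, Sele (ENSMUSG00000026582) was at chr1:164048234-164057677 and Selp (ENSMUSG00000026580) at chr1:164115264-164150026, both on the plus strand. They lay 57.6 kb apart. Icam2 (ENSMUSG00000001029, chr11:106377656-106388075) and Pecam1 (ENSMUSG00000020717, chr11:106654217-106750628) shared the minus strand of another chromosome, 266.1 kb apart with 2 protein-coding genes between them. The others were at separate places, with Icam1 (ENSMUSG00000037405) at chr9:21015985-21028817, Vcam1 (ENSMUSG00000027962) at chr3:116109949-116129688, Selplg (ENSMUSG00000048163) at chr5:113818536-113832644 and Cdh5 (ENSMUSG00000031871) at chr8:104101625-104144511. Antisense or noncoding genes overlapped Selp, Icam1, Vcam1 and Cdh5 on the opposite strand, and since the counting is not stated to use strand, reads of such a pair may not be told apart.

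RefSeq promoter sequences (GRCm38.p6) were found for 3 of the 8 genes, Sele, Selp and Icam1, which are also the genes with the largest log2 fold changes of FPKM + 1 at 6 h described further on. The 250 bases before the annotated start are shown for each, with capitals marking matches to the letters searched, at chr1:164047984-164048233 for Sele, chr1:164115014-164115263 for Selp and chr9:21015690-21015939 for Icam1, all on the plus strand.
Sele: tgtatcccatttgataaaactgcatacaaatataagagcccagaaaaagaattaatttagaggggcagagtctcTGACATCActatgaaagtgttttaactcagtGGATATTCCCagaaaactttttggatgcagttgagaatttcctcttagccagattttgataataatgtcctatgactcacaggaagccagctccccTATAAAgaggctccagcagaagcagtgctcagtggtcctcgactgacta
Selp: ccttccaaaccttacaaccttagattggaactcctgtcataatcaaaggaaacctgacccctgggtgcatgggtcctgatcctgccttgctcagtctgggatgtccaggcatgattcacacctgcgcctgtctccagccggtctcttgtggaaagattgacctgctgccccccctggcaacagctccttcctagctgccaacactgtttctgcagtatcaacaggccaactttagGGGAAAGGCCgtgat
Icam1: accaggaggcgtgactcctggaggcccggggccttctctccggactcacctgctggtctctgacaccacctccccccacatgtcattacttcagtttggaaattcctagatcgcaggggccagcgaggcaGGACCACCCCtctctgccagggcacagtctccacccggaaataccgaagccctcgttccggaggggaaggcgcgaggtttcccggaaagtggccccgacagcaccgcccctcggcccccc
All 3 held a match to GGG and CC with any 5 bases between them, a loose form of the NF-kappaB motif searched on both strands. It lay 145 to 136 bases before the start in Sele, 15 to 6 bases before it in Selp and 120 to 111 bases before it in Icam1. These letters are common, since 45.8% of 32851 promoters of the same length held them. Sele also held TATAAA, searched on the strand of the gene, 49 to 44 bases before the start, which 7.59% of promoters held, and TGACATCA, searched on both strands, 176 to 169 bases before it, which 2.93% held. No match overlapped another.

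The table gives FPKM and no read counts. Depth estimated from the lowest FPKM ranged from 0.813 to 1.32 times that of the first sham mouse and was 1.24 to 1.32 at 72 h, and the FPKM of a mouse summed to between 542418 and 600467. Cardiac tissue was identified by 8 cardiomyocyte markers, each above 1 FPKM in at least 1 mouse of every group, with a summed FPKM of 50447 to 54011 in the sham group and 18264 to 22805 at 72 h. Each of 11 endothelial markers was also above 1 FPKM in at least 1 mouse of every group, and their sum was 536 to 569 FPKM in sham mice, 482 to 558 in the mice of 6 h, 433 to 536 in those of 24 h and 367 to 429 in those of 72 h. In unsorted tissue, fewer cells of a type and less RNA per cell cannot be told apart. Single mice stood apart at 6 h and 24 h in 7 neutrophil markers, whose summed FPKM was 1006, 118 and 379 in mice 1 to 3 at 6 h and 217, 45.5 and 999 at 24 h, against 2.56 to 5.3 in the sham group.

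Differences were tested with limma on log2(FPKM + 1), on the 6 mice of each comparison, and a gene is said to have risen or fallen, or to be called, where its Benjamini-Hochberg adjusted p over all genes tested was below 0.05. The p-values measure the spread between 3 mice per group. An exact permutation test of 3 mice against 3 cannot go below p = 0.1. Log2 fold changes on this scale understate the changes of genes of low level, so the ratio of mean FPKM is given beside them.

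The adhesion genes differed in time and in size of change. Sele, Selp and Icam1 had their highest mean at 6 h, as did Pecam1 and Cdh5 with smaller differences. Vcam1 and Selplg had theirs at 72 h. Icam2, Pecam1 and Cdh5, which were already abundant in the sham heart, moved by less than 1.5 times in either direction between group means and sham. No gene of the 8 was called at 10 min or 1 h by limma. At 10 min 2 of them had an unadjusted p below 0.05, and at 1 h 4 had, 3 of them higher. Of all genes tested, 0.248% were called higher and 0.0978% lower at 10 min, and 0.669% higher and 0.0526% lower at 1 h. Of the 8 genes, 5 rose at 6 h, where 11.6% of all genes tested rose and 16.8% fell, 5 rose at 24 h, where 26.2% rose and 11.4% fell, and 5 rose at 72 h, where 53.1% rose and 24.2% fell. Groups did not overlap, with the AMI mice higher, for 5 genes at 6 h, 6 at 24 h and 5 at 72 h, beside 18.6%, 39.3% and 55.1% of all genes, and with the AMI mice lower for Icam2 at 6 h alone, beside 30.2%, 18.9% and 25.4%. None fell at these times by an adjusted p, and by an unadjusted p Icam2 was lower at 6 h. The share at 72 h was near that of all genes, so that count says little about the adhesion genes. Their median log2 fold change was 0.74 at 6 h, 0.81 at 24 h and 1.13 at 72 h, beside -0.083, 0.13 and 0.29 for all genes tested.

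**Figure D1:**
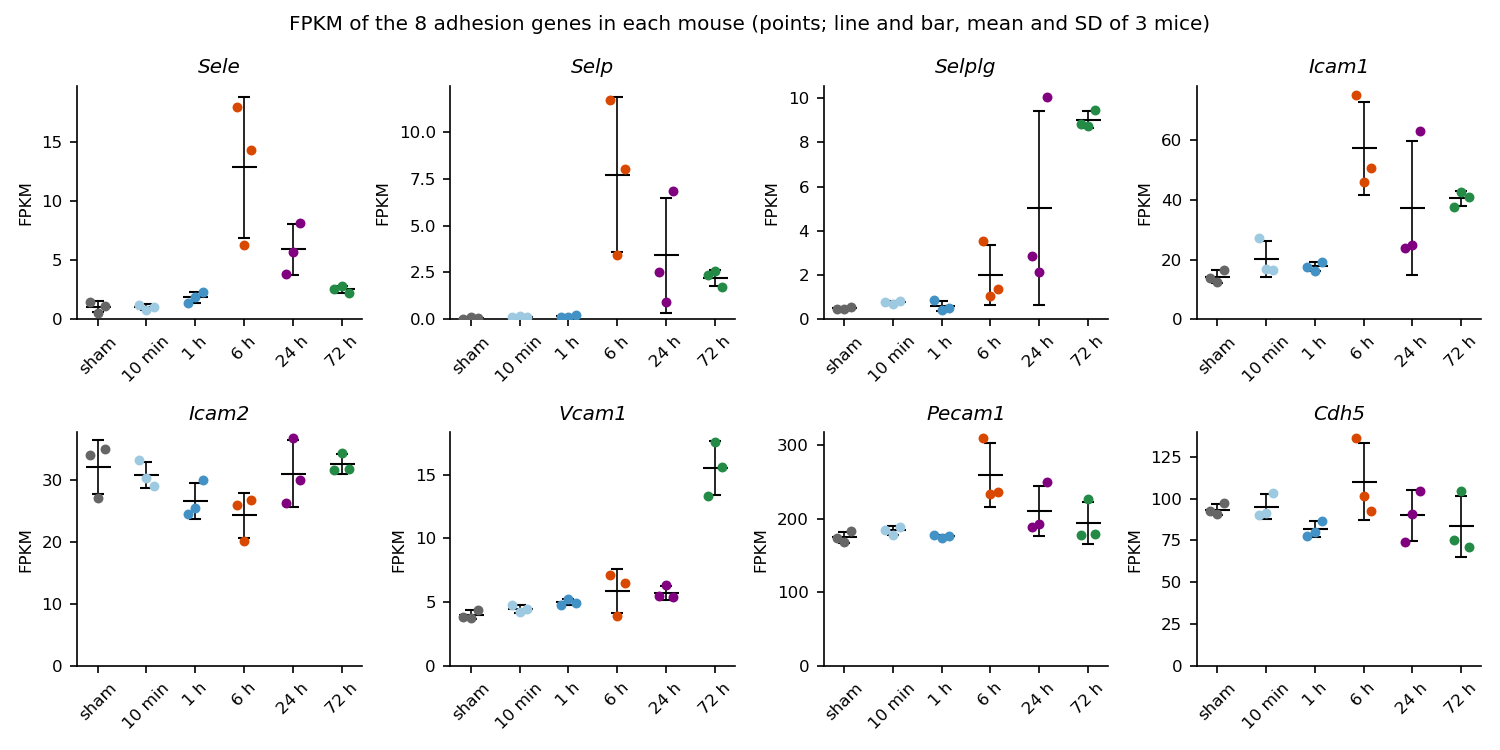
FPKM of the 8 adhesion genes (vertical axis, starting at 0, with its own scale for each gene) in sham and AMI samples at 10 min, 1 h, 6 h, 24 h and 72 h (horizontal axis). Points are single mice, and the line and bar are the mean and SD of 3 mice. Sele, Selp and Icam1 had their highest mean at 6 h, Selplg and Vcam1 at 72 h, and the 3 mice of 6 h and 24 h spread widely for Selp and Selplg.

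Sele encodes E-selectin, the cytokine-induced selectin of the endothelium. Its FPKM was 1.46, 0.564 and 1.14 in the 3 sham mice, 1.23, 0.793 and 1.08 at 10 min and 1.39, 1.85 and 2.32 at 1 h. It then reached 18.0, 6.33 and 14.3 at 6 h, stood at 3.85, 5.70 and 8.20 at 24 h and was 2.55, 2.82 and 2.19 at 72 h. From 6 h onwards every AMI mouse lay above every sham mouse, while the mice of 10 min and 1 h overlapped with sham. The mean rose from 1.05 ± 0.453 FPKM (SD, n = 3) to 12.9 ± 5.97 at 6 h, 12.2 times the sham mean, with a log2 fold change of 2.67 (SE 0.35, limma adjusted p = 0.00275). Against sham it was still 5.61 times higher at 24 h, a log2 fold change of 1.73 (SE 0.26, adjusted p = 0.00617), and 2.39 times higher at 72 h, one of 0.80 (SE 0.16, adjusted p = 0.00184). From 1 h to 6 h Sele rose by 2.19 on the log2 scale (adjusted p = 0.00723), and from 24 h to 72 h it fell by 0.93 (SE 0.22, adjusted p = 0.0134). Of all genes tested, 9.32% rose and 11.2% fell from 1 h to 6 h, and 29.7% rose and 13.5% fell from 24 h to 72 h. The drop from 6 h to 24 h was 0.95 on the log2 scale and did not pass the test (adjusted p = 0.117), and the ranges of those groups overlapped. Between 6 h and 24 h none of the 8 genes was called, where 12.5% of all genes rose and 1.94% fell. Without the third 72 h mouse the fall from 24 h to 72 h had an adjusted p of 0.0539, and under quantile normalization the difference between 72 h and sham was 0.25 (adjusted p = 0.207).

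Selp encodes P-selectin, which platelets also carry. Its FPKM was 0.0354, 0.127 and 0.0636 in the sham mice, 0.141, 0.146 and 0.144 at 10 min, and 0.135, 0.134 and 0.223 at 1 h. The 6 h mice had 11.7, 3.44 and 8.00, those of 24 h 2.50, 0.914 and 6.82, and those of 72 h 2.35, 2.55 and 1.73. AMI mice of all times lay above the sham mice, including those of 10 min and 1 h, where the levels were still below 0.25 FPKM and the difference did not pass the test. Among all genes, AMI mice lay wholly above sham for 12.2% and wholly below it for 8.15% at 10 min, and wholly above it for 7.41% at 1 h. The mean of 7.72 ± 4.14 FPKM at 6 h was 103 times the sham mean of 0.0753 ± 0.0468, a ratio that rests on a control level close to 0, and the log2 fold change was 2.89 (SE 0.34, adjusted p = 0.00194). It was 1.80 at 24 h (SE 0.45, adjusted p = 0.0228) and 1.57 at 72 h (SE 0.12, adjusted p = 3.52e-06). Selp rose by 2.78 from 1 h to 6 h (adjusted p = 0.00365). The mean at 24 h, 3.41 ± 3.06, differed from the mean at 72 h by less than the spread at 24 h, where the highest mouse was 7.46 times the lowest. The sum of 8 platelet markers was 18.9 to 21.5 FPKM in sham mice, 53.1, 18.7 and 29.6 in the 3 mice of 6 h, 59.8, 46.8 and 119.7 in those of 24 h, in the order of their Selp values at both times, and 191 to 209.9 in those of 72 h, where Selp was below its 6 h level in every mouse. Most of that sum was Pf4, with a mean of 16.9 FPKM in sham mice and 189 at 72 h, while at 72 h Gp1ba fell from 1.12 to 0.36 FPKM, Gp9 was at 0.152 and Gp6 was listed at 0 in all mice. The part of platelets in the Selp values was not tested.

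Selplg encodes PSGL-1, the ligand by which leukocytes bind P-selectin. Its FPKM was 0.473, 0.475 and 0.534 in the sham mice, 0.795, 0.684 and 0.81 at 10 min, and 0.861, 0.418 and 0.493 at 1 h. The 6 h mice had 3.56, 1.07 and 1.37, those of 24 h 2.85, 2.13 and 10.1, and those of 72 h 8.84, 8.77 and 9.46. The 3 mice of 72 h were close together, whereas at 24 h the third mouse was 4.73 times the second. Selplg rose by 0.91 on the log2 scale at 6 h (SE 0.27, adjusted p = 0.0422), 1.77 at 24 h (SE 0.44, adjusted p = 0.021) and 2.75 at 72 h (SE 0.077, adjusted p = 2.38e-08), which were 4.04, 10.2 and 18.3 times the sham mean. Without the first 6 h mouse the change at 6 h was 0.57 (adjusted p = 0.00897), and without any 1 of the sham mice it was not called. Nor was it called without the filter on low values (adjusted p = 0.0763), which Selplg passed only through the later groups. Neither of the steps from 6 h to 24 h (0.86, adjusted p = 0.245) and from 24 h to 72 h (0.97, adjusted p = 0.104) passed the test. Without the third 24 h mouse the step to 72 h was 1.53 (adjusted p = 5.27e-05). The sum of 8 general leukocyte markers was 63.6 to 85.8 FPKM in sham mice, 253, 81 and 140 in the mice of 6 h, 296, 324 and 659.6 in those of 24 h and 996 to 1169 in those of 72 h. The mouse with the highest Selplg at 6 h and at 24 h was also the one with the highest leukocyte sum, and the part of leukocyte number in the Selplg values was not tested.

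**Figure D2:**
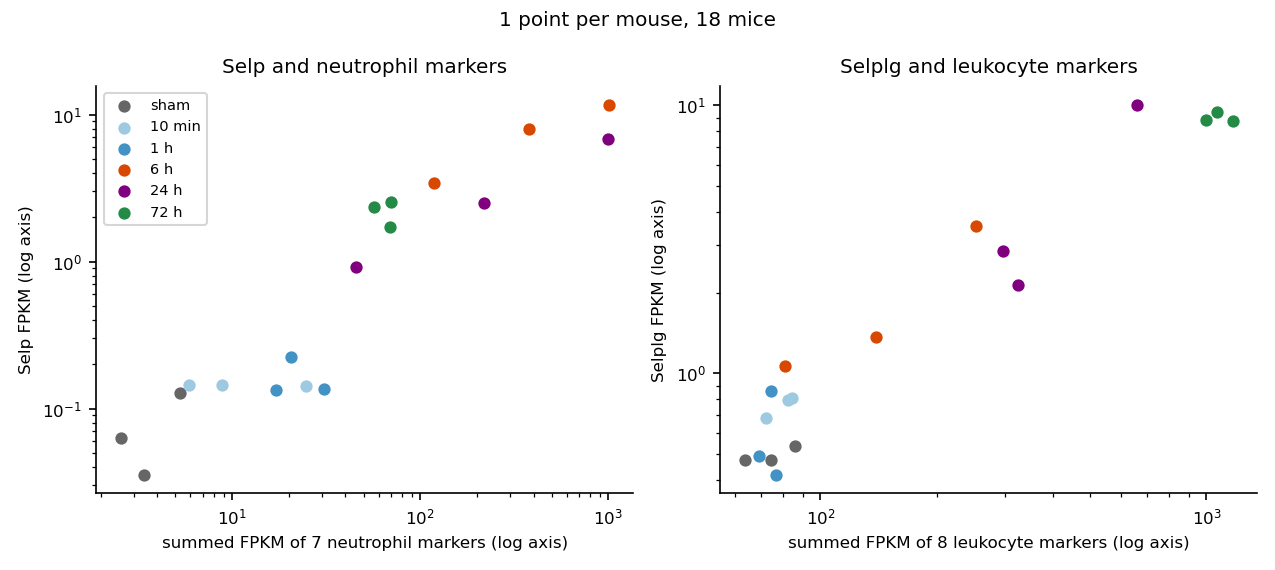
Selp FPKM against the summed FPKM of 7 neutrophil markers (left) and Selplg FPKM against the summed FPKM of 8 leukocyte markers (right), with 1 point for each of 18 mice, coloured by group, on log axes. At 6 h and at 24 h the order of the 3 mice in Selp was that of their neutrophil markers, and the 72 h mice had the highest leukocyte sums, 996 to 1169, with Selplg of 8.77 to 9.46 FPKM.

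Icam1 encodes the endothelial ligand of the beta2 integrins of leukocytes, which cytokines raise from a basal level. It was measured at 13.8, 12.3 and 16.6 FPKM in the sham mice, 27.2, 17.0 and 16.5 at 10 min and 17.6, 16.2 and 19.2 at 1 h. Levels of 75.0, 45.9 and 50.8 were reached at 6 h, followed by 23.8, 24.8 and 63.1 in the 24 h mice and 37.7, 42.7 and 41.0 in the 72 h mice. The mice of 6 h, 24 h and 72 h all lay above the sham mice, and those of 6 h also lay above those of 72 h. Icam1 rose from 14.2 ± 2.17 FPKM to 57.2 ± 15.6 at 6 h, 4.02 times the sham mean (log2 fold change 1.91, SE 0.19, adjusted p = 0.00112). The log2 fold change was 1.19 at 24 h (SE 0.36, adjusted p = 0.0376) and 1.45 at 72 h (SE 0.10, adjusted p = 3.21e-06). At 24 h the third mouse had a level more than 2 times that of the others, and without it the change was 0.74 (adjusted p = 0.00556), while under quantile normalization the call at 24 h was lost (adjusted p = 0.0523). Without that mouse Icam1 also fell between 6 h and 24 h, by 1.17 (adjusted p = 0.0271), where the difference with all mice was 0.72 lower and was not called (adjusted p = 0.199). The single 10 min value of 27.2 FPKM came from the mouse with the highest neutrophil sum of its group, 24.7 FPKM against 8.81 and 5.92.

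Vcam1 encodes the ligand of the alpha4 integrin, which monocytes and lymphocytes carry. Its FPKM was 3.86, 3.74 and 4.38 in the sham mice, 4.79, 4.18 and 4.41 at 10 min, 4.77, 5.25 and 4.94 at 1 h and 7.15, 3.87 and 6.46 at 6 h. It was 5.45, 6.31 and 5.36 at 24 h and then 13.3, 17.5 and 15.6 at 72 h. At 72 h every mouse lay above all other mice of the series, and at 1 h and 24 h above the sham mice, whereas the second mouse of 6 h lay within the sham range. Vcam1 was 1.43 times the sham mean at 24 h (a rise of 0.43 on the log2 scale, SE 0.11, adjusted p = 0.0228) and 3.88 times at 72 h (1.72, SE 0.11, adjusted p = 1.31e-06). From 24 h to 72 h it rose by 1.29 (SE 0.13, adjusted p = 0.000302), with all 72 h mice above all 24 h mice, as for 37.3% of all genes, while 19.1% had them below. At 6 h the difference was 0.42 with a 95% interval of -0.03 to 0.87 (adjusted p = 0.139), and it was called without the second 6 h mouse and in a fit of all 18 mice (adjusted p = 0.0418). The call at 24 h was lost under quantile normalization, with a log2 fold change of 0.20 (adjusted p = 0.183), and when the second 24 h mouse or any 1 of the sham mice was left out (adjusted p up to 0.0917).

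Icam2 encodes an integrin ligand that resting endothelium carries. Its FPKM was 34.0, 27.0 and 34.9 in the sham mice, 33.1, 30.2 and 28.9 at 10 min, and 24.5, 25.4 and 29.9 at 1 h. The 6 h mice had 25.8, 20.1 and 26.7, those of 24 h 26.2, 36.7 and 29.9, and those of 72 h 31.6, 34.3 and 31.7. At 6 h each mouse lay below each sham mouse, as was the case for 30.2% of all genes, and the groups overlapped at the other times. The difference at 6 h was -0.39 on the log2 scale with a 95% interval of -0.72 to -0.06 and an adjusted p of 0.0753. In a fit of all 18 mice it was called lower (adjusted p = 0.0341). The intervals were -0.41 to 0.31 at 24 h and -0.20 to 0.26 at 72 h, so at neither time do they include a change of the size seen for Icam1. Per length, in FPKM, Icam2 was above Icam1 in every sham mouse and below it in every 6 h mouse.

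**Figure D3:**
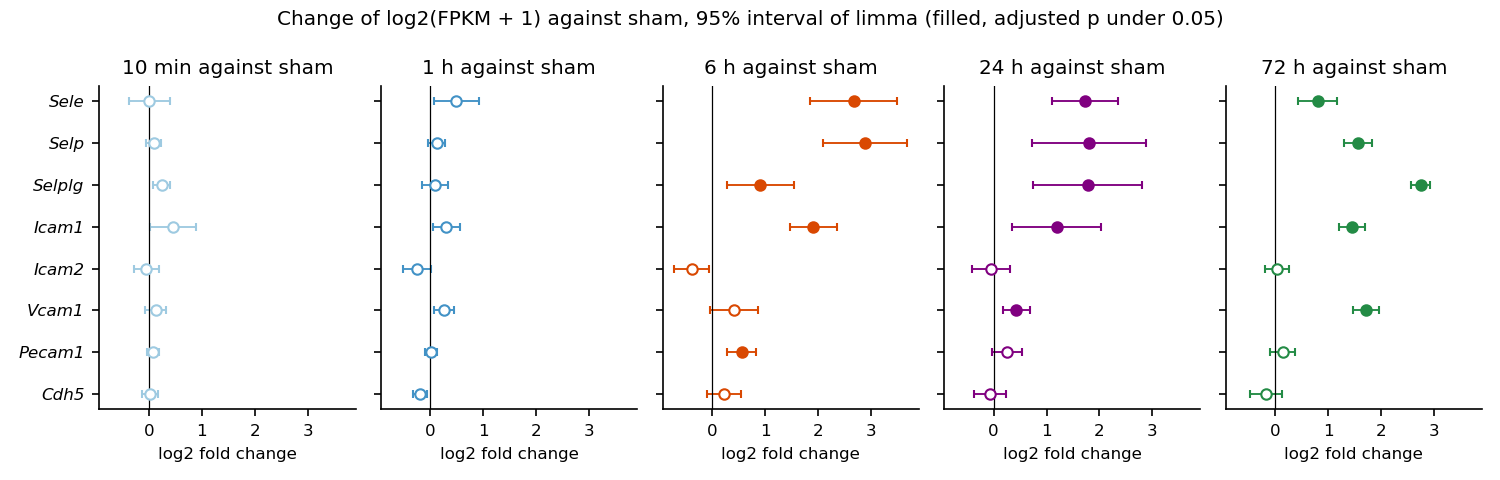
Log2 fold change of log2(FPKM + 1) against sham (horizontal axis) for the 8 adhesion genes (vertical axis) at each time, with the 95% interval of limma. Filled points had an adjusted p below 0.05, and none is filled at 10 min or 1 h. Sele fell back from 2.67 at 6 h to 0.80 at 72 h, and Vcam1 reached 1.72 at 72 h.

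Pecam1 encodes a molecule that endothelial cells use to bind each other at their junctions and that platelets and leukocytes carry too. It had the highest FPKM of the 8 genes in every group, with 173, 168 and 182 in the sham mice, 185, 178 and 189 at 10 min, and 178, 174 and 176 at 1 h. The 6 h mice had 309.7, 233 and 236, those of 24 h 189, 192 and 249, and those of 72 h 177, 227 and 179. At 6 h and 24 h all mice lay above the sham mice. Pecam1 rose by 0.56 on the log2 scale at 6 h (SE 0.12, adjusted p = 0.0139), to 1.49 times the sham mean, and by 0.55 from 1 h to 6 h (adjusted p = 0.0191). At 24 h the interval was -0.03 to 0.54 (adjusted p = 0.135) and at 72 h -0.09 to 0.38 (adjusted p = 0.228). The call at 6 h was lost without the first or the second sham mouse, and that from 1 h to 6 h without any 1 of the 1 h mice.

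Cdh5 encodes VE-cadherin, the adhesion protein of endothelial adherens junctions. Its FPKM was 92.4, 90.5 and 97.1 in the sham mice, 90.4, 91.3 and 104 at 10 min, and 77.6, 80.1 and 86.8 at 1 h. The 6 h mice had 136, 102 and 92.8, those of 24 h 74.2, 91.0 and 105, and those of 72 h 75.1, 104 and 70.9. Only at 1 h did no AMI mouse overlap with sham, all of them being lower, as were those of 10.9% of all genes, with a difference of -0.19 (adjusted p = 0.254). It was not called at any time. The 95% intervals were -0.10 to 0.54 at 6 h, -0.37 to 0.24 at 24 h and -0.49 to 0.12 at 72 h. At 72 h it was called lower under median-of-ratios scaling (-0.42, adjusted p = 0.0148), under quantile normalization (-0.35, adjusted p = 0.0462) and when the second 72 h mouse was left out.

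The background of these changes depended on the scaling of the libraries. The median of all genes tested was 0.13 higher than sham at 24 h and 0.29 higher at 72 h with FPKM as deposited, 0.021 and 0.089 with median-of-ratios scaling, and -0.044 and -0.10 with quantile normalization. Of all genes called at 72 h, 68.7% were higher with FPKM as deposited, 56.2% after median-of-ratios scaling and 43.5% after quantile normalization, and at 24 h these shares were 69.8%, 52.8% and 45.1%. At 6 h 40.9% were higher with FPKM as deposited, 53.8% after median-of-ratios scaling and 44.4% after quantile normalization. Scaling to the same sum of FPKM gave medians of 0.13 at 24 h and 0.36 at 72 h. Of the genes called under it, 69.1% and 72.3% were higher at these times. Sele, Selp, Selplg, Icam1 and Vcam1 lay above sham at 72 h under each scaling. Icam2 and Pecam1 turned to slightly below it under median-of-ratios scaling and quantile normalization, but not with the same sum of FPKM.

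Because endothelial cells are only a part of the tissue, each gene was also compared after the mean log2(FPKM + 1) of the 11 endothelial markers had been subtracted in the same mouse. For Selplg, whose product leukocytes carry, such a difference does not measure a change within endothelial cells. Nor does it isolate such a change for the other genes, since the tissue was unsorted. Platelets also carry P-selectin, and platelets and leukocytes carry PECAM-1. The part of other cells in these differences was not tested. Relative to these markers, Sele, Selp, Selplg, Icam1 and Pecam1 were called higher at 6 h, with differences of 2.74, 2.96, 0.98, 1.98 and 0.63 (adjusted p of 0.000103, 4.5e-05, 0.00814, 1.08e-05 and 0.00359), where 12.5% of all genes were called higher. At 24 h the same genes and Vcam1 were called, with 1.88 for Sele, 1.95 for Selp, 1.92 for Selplg, 1.34 for Icam1, 0.58 for Vcam1 and 0.41 for Pecam1, where 38.6% of all genes were. That call of Pecam1 (adjusted p = 0.0422) was lost when any mouse other than the second 24 h mouse was left out. At 72 h all 8 were called higher, but so were 74.8% of all genes, and the sum of the endothelial markers was itself lower than in the sham group. Cdh5 differed from the markers by 0.31 at 72 h (adjusted p = 0.0187, or 0.0659 without the second sham mouse), and Icam2 by 0.52 (adjusted p = 0.000888). Against Cdh5 and Pecam1 in place of the markers, 5 genes were higher at 72 h, namely Sele, Selp, Selplg, Icam1 and Vcam1. Cdh5 and Pecam1 are themselves 2 of the 8 genes, so their own differences under this reference are equal and opposite by construction. No share of all genes was computed for it.

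**Figure D4:**
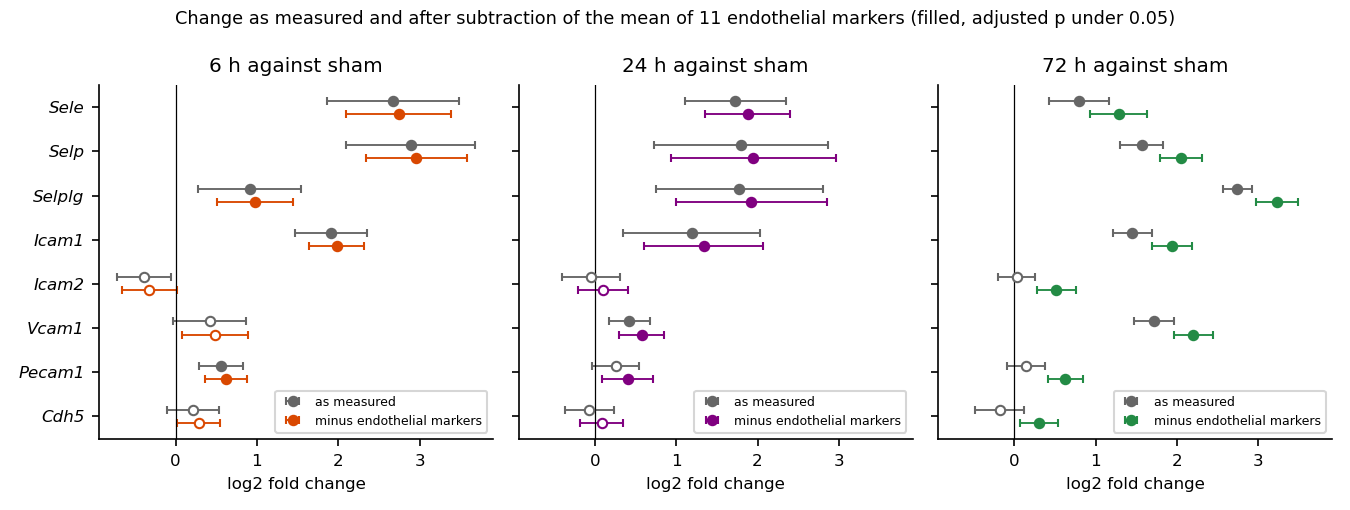
Log2 fold change against sham (horizontal axis) of the 8 adhesion genes (vertical axis) at 6 h, 24 h and 72 h, as measured (grey) and after subtraction of the mean of 11 endothelial markers in the same mouse (colour), with 95% intervals and filled points for an adjusted p below 0.05. The subtraction moved all genes by the same amount within a time, and most at 72 h, where Icam2, Pecam1 and Cdh5 passed the test only after it.

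The genes differed in how they spread among mice of one group. At 6 h the first mouse had the highest value of 7 of the 8 genes and the second the lowest of 7. At 24 h the third mouse was highest in 6. The sums of 8 cytokine genes that act on endothelium were 55.3, 9.79 and 35.1 FPKM in the mice of 6 h and 9.1, 5.52 and 131 in those of 24 h, the same order of mice as the neutrophil markers. Il1b, the gene of interleukin-1 beta, made up most of this sum, with 49.4, 8.34 and 32.0 FPKM at 6 h and 7.68, 4.31 and 103 at 24 h. Selp and Selplg followed that order at both times, and Sele, Icam1, Vcam1 and Pecam1 did at 6 h. Without the first 6 h mouse the changes at 6 h were 2.39 for Sele, 2.56 for Selp and 1.70 for Icam1, each still called. Leaving out the third 24 h mouse gave 1.27 for Selp at 24 h, again called as was Sele. With any 1 of the sham mice left out, Sele alone was called at 24 h among the 8 genes, the adjusted p of Selp being 0.0688 to 0.0764.

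Over the 18 mice, which share the time course, Selp correlated with Icam1 (Pearson's r of log2(FPKM + 1) = 0.93) and with Sele (0.92), Pecam1 with Selp (0.88) and Sele (0.87), and Selplg with Vcam1 (0.82). Cdh5 was most like Pecam1 (0.76), and Icam2 had an r between -0.29 and 0.32 with each of the other 7. Among 12590 genes ranked, those most like Sele were Rnd1 (0.96), the metallothionein gene Mt2 (0.95) and Pgf (0.95), a growth factor of the VEGF family. Nearest to Selp were Rnf19a, the hyaluronan synthase gene Has1 and the activin subunit gene Inhbb, each with an r of 0.97, and nearest to Icam1 were Arid5a (0.97), the neutrophil collagenase gene Mmp8 (0.95) and Il4ra (0.94), which encodes a subunit of the interleukin-4 receptor. Selplg was most like Gmfg, Hmga2-ps1 and Snx20, each with an r of 0.99. The pseudogene Hmga2-ps1 may share reads with its parent, so its value is uncertain. Vcam1 was most like Nnmt (0.97), Sulf1 (0.97) and Rgs1 (0.97), and Pecam1 most like Adamts9 (0.96), Mast4 (0.94) and the phosphodiesterase gene Pde4b (0.94). The nearest genes to Icam2 were Gimap1 (0.89), Vopp1 (0.85) and Znhit3 (0.82), and to Cdh5 Dgkh (0.88), Fam43a (0.82) and Ece1 (0.82).

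Leukocyte integrins are the partners of ICAM-1, ICAM-2 and VCAM-1 on the other side of the contact. Most of the summed FPKM of the list in the sham group, a mean of 281, was Itgb1 with 259, and Itga9 had 16.9. The leukocyte marker Ptprc had a mean of 0.784 there. Which cells held these integrin transcripts was not tested. Of the 8 genes tested, Itgal, Itgax and Itgb7 stayed below 1 FPKM in every mouse of the sham, 10 min and 1 h groups. They passed the filter only through later groups. With that limit, 4 of the 8 rose at 6 h, 6 at 24 h and 8 at 72 h. None was lower, and the median log2 fold change was 0.52, 1.26 and 2.27. Of all genes tested, 11.6%, 26.2% and 53.1% rose at these times and 16.8%, 11.4% and 24.2% fell. Itgb2, the beta2 chain shared by ICAM-1 receptors, rose from 2.51 FPKM to 7.91, 31.0 and 63.0 FPKM in the mice of 6 h, 24 h and 72 h (changes of 1.25, 2.98 and 4.19 on the log2 scale, adjusted p of 0.0209, 0.00502 and 1.11e-08). Itgam, its partner chain on neutrophils and macrophages, had means of 0.706, 6.40, 22.0 and 24.4 FPKM in the same groups. Itga4, the alpha4 chain that binds VCAM-1, did not pass the test at 6 h (0.15, adjusted p = 0.481) and rose by 0.78 at 24 h (adjusted p = 0.00692) and by 2.36 at 72 h (adjusted p = 9.73e-08), from 0.677 to 7.63 FPKM. Its mice already lay above the sham mice at 10 min (0.792, 0.865 and 1.07 FPKM) and 1 h (0.937, 1.04 and 1.06), without passing the test, and overlapped with them at 6 h.

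Genes for selectin ligands and the enzymes that build them included 13 that were tested. Of these, Spn, Fut4 and Gcnt1 stayed below 1 FPKM in every sham, 10 min and 1 h mouse. They passed the filter only through later groups. Of the 13, 3 rose and 1 fell at 6 h, 4 rose and 1 fell at 24 h, and 11 rose and 2 fell at 72 h. The shares of all genes were 11.6%, 26.2% and 53.1% for rises at these times and 16.8%, 11.4% and 24.2% for falls. Cd44, which encodes a hyaluronan receptor that can also bind E-selectin, rose from 1.44 FPKM to 9.87, 15.4 and 17.4 (log2 fold changes of 2.02, 2.57 and 2.90). Gcnt1, an enzyme that builds the branched sugar needed on PSGL-1, rose by 1.69 at 72 h (adjusted p = 4.27e-06), while Podxl, a sialomucin of endothelium, fell by 1.08 (adjusted p = 5.04e-05). Cd34, another sialomucin, fell by 0.58 at 6 h (adjusted p = 0.0151) and rose by 0.88 at 72 h (adjusted p = 4.45e-06).

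Junction and transmigration genes were mixed. Among 11 tested, 4 rose and 3 fell at 6 h, 4 rose and 3 fell at 24 h, and 3 rose and 4 fell at 72 h. Beside them, 11.6%, 26.2% and 53.1% of all genes rose at these times and 16.8%, 11.4% and 24.2% fell. Cldn5, the tight junction claudin of endothelium, rose from 20.0 FPKM to 80.1, 49.3 and 42.2 in the mice of 6 h, 24 h and 72 h (changes of 1.92, 1.20 and 1.05 on the log2 scale, adjusted p of 0.0018, 0.0181 and 4.73e-05). Pvr, the poliovirus receptor of endothelial junctions, rose from 7.52 FPKM to 20.4 at 6 h and 20.9 at 24 h (adjusted p of 0.00268 and 0.00587). At 72 h its mean was 8.37 FPKM, a log2 fold change of 0.13 that was not called (adjusted p = 0.236). Jam2 fell at all 3 times, from 122 FPKM to 84.5, 69.0 and 68.6. Of the 5 genes for partners of VE-cadherin, 1 fell at 6 h, 1 at 24 h and 3 at 72 h, when 2 rose, and Ptprb, the phosphatase that binds it, fell by 1.29 at 72 h (adjusted p = 1.28e-05).

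Weibel-Palade bodies hold P-selectin together with von Willebrand factor. Of 5 genes for their contents and transport, 4 rose at 6 h, 2 at 24 h and 5 at 72 h. At these times 11.6%, 26.2% and 53.1% of all genes rose. Most of the summed FPKM of this list at 72 h, a mean of 831, was Cd63 with 612, against 146 of 302 in the sham group. The part of cells other than endothelium in its level was not tested. Vwf itself had means of 149 FPKM in the sham group, 198 at 6 h and 110 at 24 h, neither of which was called, and 203 at 72 h (0.45, adjusted p = 0.0193). Angpt2, whose product destabilises vessels, rose from 1.26 to 3.12 FPKM at 6 h (0.85, adjusted p = 0.00969). Of 4 tested cytokine genes, 3 rose at 6 h, 1 at 24 h and 4 at 72 h. All 4 (Tnf, Il1a, Il1b and Osm) were below 1 FPKM in every sham mouse. They passed the filter only through mice after ligation, so these counts say little about them. Il1a passed only through the third 24 h mouse, with 15.7 FPKM. On the log2 scale Il1b rose by 4.16 at 6 h (adjusted p = 0.00277), by 3.60 at 24 h (adjusted p = 0.0308) and by 2.92 at 72 h. Tnf had a log2 fold change of 0.16 at 6 h (adjusted p = 0.28) and rose by 0.69 at 72 h (adjusted p = 0.00199).

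Markers of cell types of the tissue moved with time as well. Of all genes tested, 11.6% rose and 16.8% fell at 6 h, and 26.2% rose and 11.4% fell at 24 h. At 72 h 53.1% rose and 24.2% fell. Of the 11 endothelial markers, 1 rose and 4 fell at 6 h, 1 rose and 4 fell at 24 h, and 8 fell at 72 h, among them the VEGF receptor genes Flt1 (log2 fold change of -1.57) and Kdr (-0.90). Of 7 neutrophil markers, 7 rose at 6 h, 6 at 24 h and 6 at 72 h. In the sham group 6 of the 7 were below 1 FPKM in every mouse, so those passed the filter only through mice after ligation. Of 8 leukocyte markers, 3 rose at 6 h and 8 at both later times, and of 8 macrophage markers 2 rose and 2 fell at 6 h, 5 rose at 24 h and 7 at 72 h, when their sum was 2240 to 2863 FPKM against 242 to 283 in the sham group. Of 7 tested platelet markers, 1 rose at 6 h, 3 at 24 h and 4 at 72 h, when 1 fell. Of the 8 listed platelet markers, 5 were below 1 FPKM in every sham mouse. The 3 T cell markers were below 1 FPKM in all mice. Of 6 fibroblast markers, 2 fell at 6 h, 2 rose and 2 fell at 24 h, and 6 rose at 72 h. Their sum was 359 to 408 FPKM in the sham group and 2499 to 3136 at 72 h. Of 6 mural cell markers, 2 fell at 6 h and 2 at 24 h, and 2 rose and 2 fell at 72 h. The part of these cell types in the levels of the 8 adhesion genes was not tested.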

How the data were processed

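RNA of left ventricle tissue of 18 mice was sequenced. Per the labels and the study's methods, the authors used cutadapt 1.18 for trimming and HISAT2 2.1.0 for mapping to mm10and estimated FPKM with StringTie 1.3.4d, and the deposited table holds these FPKM per gene symbol and mouse. The annotation is not given in the sources used here, and the authors' own comparison with Cufflinks was not repeated, since it needs the reads. All columns of samples were used. The columns of the 1 h mice and of the second 6 h mouse are spelled with 1 letter other than in the sample titles and match no other title.

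FPKM of at least 1 in at least 1 of 18 mice was required. Tests used log2(FPKM + 1), limma 3.58.1 (lmFit, eBayes with trend) in R 4.3.3, two-sided, and p-values were adjusted by Benjamini-Hochberg over every tested gene. Each comparison used its own 6 mice. Positions, motif searches and figures used Python 3.11.15, numpy 2.4.6, pandas 2.3.3 and matplotlib 3.10.9. The scripts were tested on simulated data. Depth in counts is unknown, and precision comes from the spread between 3 mice.

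Groups came from the sample titles. Of 15 pairs of mice with the same replicate number, none deviated together with a correlation over 0.1, so numbers were not taken as pairs. The genes named were the 8 adhesion genes, genes of fixed lists, and the 3 genes most correlated with each adhesion gene, predicted genes left out. Some single genes count in their lists but are not reported here. These genes and lists were chosen with earlier results of these data known. Alternatives were a pseudocount of 0.1, other filters, scalings, fits, call rules and endothelial references, and leaving out each mouse.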

Additional observations from a re-analysis of the deposited data

Results flagged for a closer look

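For 2 of the 8 genes the change against sham differed between 24 h and 72 h by limma's test of the difference itself. Of all genes tested, 29.7% were called higher and 13.5% lower at 72 h against 24 h, so this count says little about the adhesion genes. The 72 h mice lay wholly above those of 24 h for 37.3% of all genes and wholly below them for 19.1%. Sele changed less at 72 h, by -0.93 on the log2 scale (adjusted p = 0.0134), with all 3 mice of 72 h below all 3 of 24 h. Its adjusted p was 0.0049 to 0.0539 when single mice were left out. Vcam1 changed more at 72 h, by 1.29 (adjusted p = 0.000302), with all 3 mice of 72 h above all 3 of 24 h, and its adjusted p was 0.000205 to 0.00294 when single mice were left out. Groups of 3 mice were too small for a search for outlying mice.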

How the results depend on the processing

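Of the counts of called adhesion genes, 173 of 184 under other settings and 122 of 132 with 1 mouse left out stayed within 1.5 times the reported count. Of the values of single genes, 627 of 668 and 471 of 528 kept their direction and their side of the threshold. With the replicate number as a block, 1 gene was lower at 6 h (Icam2, adjusted p = 0.0307), the call of Vcam1 at 24 h was lost (0.0539) and Selplg was called between 1 h and 6 h (0.0357), and the numbers share no more than a label, since r between mice of the same number was -0.26 to 0.082. In a fit of all 18 mice, 1 gene was lower at 6 h, 1 was higher and 2 were lower at 24 h against 6 h (Icam2, Sele and Selp), 2 were higher at 72 h against 24 h, and Selplg at 6 h missed the threshold (0.0538). Quantile normalization left 3 higher at 24 h and made 1 lower at 72 h, as did median-of-ratios scaling at 72 h. An unadjusted p with a ratio over 2 gave 1 lower at 24 h against 6 h. With Cdh5 and Pecam1 as reference, 1 was lower at 6 h (Icam2) and 5 were higher at 72 h. Without the filter, Selplg at 6 h (0.0763) and Icam1 at 24 h (0.0685) missed the threshold.

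With single mice left out, the number of higher genes was 3 to 6 at 6 h, 1 to 5 at 24 h, and 1 to 3 at 72 h against 24 h. The number of lower genes was 0 to 1 at 72 h, at 24 h against 6 h, at 72 h against 24 h and, relative to the endothelial markers, at 6 h.

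Directions turned in differences that were not called, and in that of Cdh5 relative to the endothelial markers at 72 h, which was. With median-of-ratios scaling and quantile normalization these were Icam2 (-0.20 and -0.24) and Pecam1 (-0.094 and -0.0091) at 72 h, Vcam1 at 24 h against 6 h (-0.19 and -0.24) and Icam2 at 72 h against 24 h (-0.016 and -0.032). Sele at 10 min was -0.0064 with the first and Pecam1 at 1 h -0.0068 with the second. With Cdh5 and Pecam1 as reference, Cdh5 was -0.17 at 6 h and -0.16 at both later times, and Icam2 at 24 h was -0.14. The value of Cdh5 there is by construction that of Pecam1 with the sign turned. With single mice left out, log2 differences crossed 0 for Sele (-0.18 to 0.15), Icam2 (-0.16 to 0.017) and Cdh5 (-0.038 to 0.059) at 10 min, Pecam1 (-0.016 to 0.044) and Selplg (-0.038 to 0.16) at 1 h, Icam2 (-0.18 to 0.058) and Cdh5 (-0.18 to 0.063) at 24 h, and Icam2 (-0.083 to 0.097) at 72 h. They also did for Vcam1 at 24 h against 6 h (-0.22 to 0.15), for Icam2 (-0.027 to 0.21), Selp (-0.71 to 0.30), Pecam1 (-0.23 to 0.018) and Cdh5 (-0.28 to 0.0012) at 72 h against 24 h, and for Icam2 relative to the endothelial markers at 24 h (-0.012 to 0.17). The causes were not tested. The table holds no counts, so a level near 0, such as that of Selp in the sham mice, has no counting error beside it.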
